A study of Mus musculus with 24 samples.

Results

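The genes described here are 37 interferon-stimulated genes, taken by name from the gene list that accompanies every library, which holds 32285 mouse genes. All 37 were found there. They comprised 4 transcription factors of the pathway (Stat2, Irf1, Irf7 and Irf9), 8 sensors of foreign or misplaced nucleic acid (Ifih1, Ddx58, Zbp1, Eif2ak2, Ifi204, Ifi207, Ifi209 and Ifi213), 9 antiviral effectors (Ifit1, Ifit2, Ifit3, Oasl2, Rsad2, Bst2, Gbp2, Gm4951 and Slfn5) and 8 genes of ISG15, ubiquitin and ADP-ribose conjugation (Isg15, Usp18, Herc6, Rnf213, Trim30a, Dtx3l, Parp9 and Parp14). The others were the chemokines Cxcl10 and Ccl12, the immunoproteasome subunits Psmb8 and Psmb9, and 4 genes of other or less settled function (Sp100, Xaf1, Ifi35 and Ifi27).

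Interferons are cytokines that cells release when they sense viral or misplaced nucleic acid. Type I interferons bind the receptor chains Ifnar1 and Ifnar2, and the kinases Jak1 and Tyk2 then act on Stat2, which works with Irf9 at the interferon-stimulated response element (ISRE) in front of target genes. Interferon gamma binds Ifngr1 and Ifngr2, and its target genes carry the gamma-activated site (GAS). Microglia, astrocytes and the cells of brain vessels can all respond, and sensors and transcription factors of the pathway are themselves among its targets.

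The samples were nuclei from brains of Pdgfb ret/ret mice (mutant) and of Pdgfb ret/wt mice (control), which also carry 1 ret allele (strain B6.Pdgfbtm3Cbet). The ret allele encodes a PDGF-B protein without its retention motif, and mutants lose pericytes from brain vessels and develop vessel calcification. From each of 6 mutants and 6 controls, 1 deep brain library (pallidum, interbrain, midbrain and pons, the parts prone to calcification) and 1 cortex library (cerebral cortex with hippocampus) were made, 24 in all. Control 6 was male and the other 11 mice were female, and ages ran from 4 months 7 days to 5 months 18 days. The ret allele is still transcribed, so the Pdgfb level checks no label: it was 6.14 ± 1.41 (SD, n = 6) UMIs per 1000000 UMIs (unique molecular identifiers) in control and 4.64 ± 0.989 in mutant deep brain.

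Deep brain libraries held 64736053 to 96459036 UMIs and cortical libraries 23625232 to 95605387, and 124958 of 127519 deep brain and 79967 of 109705 cortical barcodes were kept as nuclei. In 3 cortical libraries (mutants 5 and 6, control 5) the depth stood well above that of the other 9, and the median UMI count per kept nucleus ran from 804 to 8054 over the cortical libraries. Pairs of libraries shared 60 to 246 barcodes, 0.833% to 2.372% of the smaller library. Nuclei were clustered without the 37 genes and named from marker lists, so a class name below means nuclei that resemble that type (microglia-like and so on). Clusters left unnamed or mixed held 6.90% to 9.99% of the nuclei of a deep brain library, but 5.30% to 86.3% of a cortical one (mean 48.3% in controls and 57.2% in mutants), so the cortical classes rest on a part of the nuclei that differs widely between libraries. Levels are given as CPM, the UMIs of a gene per 1000000 UMIs in the nuclei of a class in 1 library, and intervals from lowest to highest with the median are over the 6 mice of a genotype unless another n is given.

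The promoters of the 37 genes, as RefSeq gives them on GRCm38.p6, were searched for an ISRE-type word (GAAA, any 2 bases, GAAA) and for the GAS word (TTC, any 3 bases, GAA), both on both strands and with the 2 words allowed to overlap. Windows ran from 250 bases before to 50 bases after the start site. Of the 37 genes, 30 had an entry, and 15 of these 30 genes (50%) held the ISRE-type word, against 3.993% of 27025 genes in the table. The GAS word was in 6 of 30 genes (20.0%), against 9.554% of all genes. A match describes the letters of the window and is not evidence that a factor binds there.

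The windows of Ddx58 (chr4:40239776-40240075, minus strand), Trim30a (chr7:104465144-104465443, minus strand), Ifi213 (chr1:173599223-173599522, minus strand) and Isg15 (chr4:156200769-156201068, minus strand) are shown because the first 3 genes were higher in mutants in a comparison below and the last gives its name to the ISG15 group. Capitals mark the ISRE-type words, which begin at position 2 in Ddx58, -36 in Trim30a, -73 in Ifi213 and at -78, -72 and -66 (overlapping) in Isg15, with the first transcribed base as 0.
Ddx58: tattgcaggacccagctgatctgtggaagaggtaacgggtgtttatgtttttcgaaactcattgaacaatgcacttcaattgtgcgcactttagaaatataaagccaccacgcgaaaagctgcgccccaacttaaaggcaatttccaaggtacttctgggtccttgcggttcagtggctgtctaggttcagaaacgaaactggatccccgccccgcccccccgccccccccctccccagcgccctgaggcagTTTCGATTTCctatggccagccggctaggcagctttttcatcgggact
Trim30a: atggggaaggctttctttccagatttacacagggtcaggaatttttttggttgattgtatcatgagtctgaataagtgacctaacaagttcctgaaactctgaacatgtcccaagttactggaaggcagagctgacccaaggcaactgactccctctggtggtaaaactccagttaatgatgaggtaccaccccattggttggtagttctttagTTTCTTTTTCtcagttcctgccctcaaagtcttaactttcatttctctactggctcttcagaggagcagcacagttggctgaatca
Ifi213: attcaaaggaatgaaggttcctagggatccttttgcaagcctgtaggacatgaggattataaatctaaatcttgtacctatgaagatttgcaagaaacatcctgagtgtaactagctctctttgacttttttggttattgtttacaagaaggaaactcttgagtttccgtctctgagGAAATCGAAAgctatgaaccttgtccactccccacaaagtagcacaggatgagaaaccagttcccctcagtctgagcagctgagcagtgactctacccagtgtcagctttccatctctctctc
Isg15: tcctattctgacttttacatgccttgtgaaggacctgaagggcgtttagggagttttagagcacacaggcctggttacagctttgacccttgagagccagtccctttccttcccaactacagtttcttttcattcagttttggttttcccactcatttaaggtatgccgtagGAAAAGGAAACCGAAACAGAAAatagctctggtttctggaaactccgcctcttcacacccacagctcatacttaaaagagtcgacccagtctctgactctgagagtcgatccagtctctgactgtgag
Neither word was found in the windows of Herc6, Sp100, Oasl2, Xaf1 and Irf9, genes that also differed between genotypes below.

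Before any comparison of genotypes, the summed level of the 37 genes set the cell classes far apart. In control deep brain it was 3794 ± 1600 CPM (SD, n = 3 libraries with at least 10 nuclei) in border macrophages, 2866 ± 443 in endothelial cells, 1226 ± 159 in microglia, 1046 ± 250 in fibroblasts, 560 ± 128 in mural cells and 539 ± 191 in ependymal cells. It was lower again in astrocytes (313 ± 18.1), oligodendrocyte precursors (254 ± 18.0), newly forming oligodendrocytes (253 ± 58.2), oligodendrocytes (202 ± 10.3) and neurons (74.4 ± 7.13). Neighbours in this order whose levels did not differ beyond their spread were border macrophages and endothelial cells, microglia and fibroblasts, mural and ependymal cells, oligodendrocyte precursors and newly forming oligodendrocytes, and the latter and oligodendrocytes. T lymphocytes reached 10 nuclei in mutant libraries alone, where the sum was 3466 ± 744 CPM. These levels describe the classes and were not tested. Members with many UMIs weigh most in such a sum, and in the shares and counts of member UMIs below. Over all kept nuclei Stat2 had 39158 UMIs, Herc6 31855 and Ifi27 22509, against 894 of Ccl12 and 439 of Cxcl10. The fibroblast class also held RNA of other types. In control deep brain its own markers summed to 2415 ± 168.1 CPM, neuron markers to 2588 ± 1021 and astrocyte markers to 2310 ± 424.4. The part of this RNA in the fibroblast level was not tested.

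**Figure D1:**
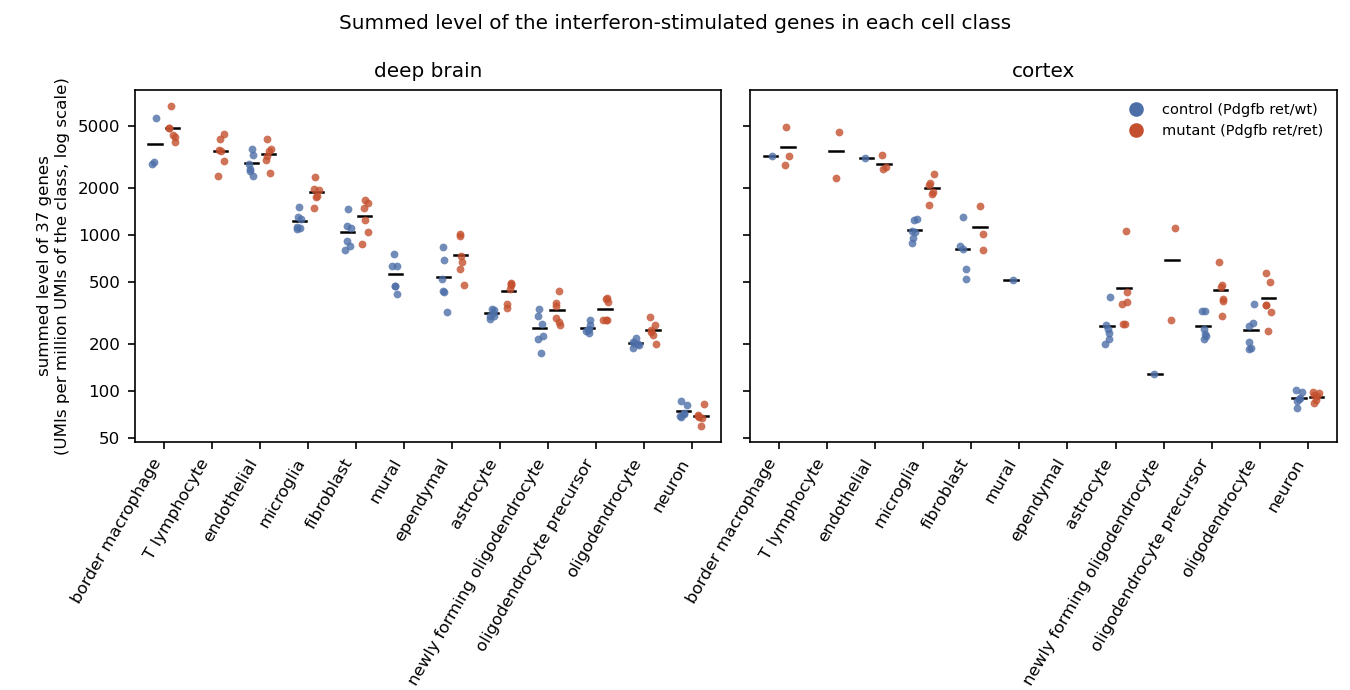
Summed level of the 37 genes in each cell class (CPM of the class, log axis), deep brain on the left and cortex on the right. Each point is 1 library with at least 10 nuclei of the class, blue for control and red for mutant, and the black line is the mean. Border macrophages and endothelial cells stand above 2000 and neurons below 110, and the microglial points of mutants are shifted upward in both regions.

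The members with most UMIs in each role did not share 1 order of classes. Among the transcription factors, Stat2 was spread widely, with 114 ± 30.8 CPM in control deep brain endothelial cells, 63.8 ± 16.7 in fibroblasts, 34.0 ± 12.7 in microglia, and near-equal levels in astrocytes (29.4 ± 7.4), oligodendrocytes (29.2 ± 4.0) and neurons with Slc17a transporters, which mark glutamatergic cells (29.5 ± 4.4). Irf9, the DNA-binding partner of Stat2, was steeper, at 47.7 ± 28.6 CPM in endothelial cells, 29.0 ± 7.0 in microglia, 7.74 ± 1.86 in astrocytes and 2.44 ± 0.74 in oligodendrocytes. Endothelial cells and microglia overlapped for Irf9.

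Of the sensors, Eif2ak2, the kinase PKR that stops translation on double-stranded RNA, lay at 86.5 ± 21.8 CPM in endothelial cells, 76.9 ± 36.0 in microglia, 51.2 in fibroblasts and 38.6 ± 3.6 in astrocytes, and at 2.91 in oligodendrocytes. Ddx58, the RNA sensor RIG-I, stood at 80.7 ± 15.8 CPM in endothelial cells, 48.4 ± 8.7 in microglia, 27.7 in oligodendrocyte precursors, 16.2 ± 2.3 in astrocytes and 1.94 in oligodendrocytes. Neurons were lowest or among the lowest for both sensors, between 1.12 and 3.71 CPM. Of the effectors, Ifit2, which binds viral RNA, was at 53.5 ± 61.5 CPM in endothelial cells, a mean that varied more between mice than its own size, and at 23.4 ± 5.1 in oligodendrocyte precursors against 7.69 ± 6.57 in microglia.

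Gm4951, an interferon-inducible GTPase of the mouse, was among the most restricted. In control deep brain it reached 385 ± 339 CPM (n = 3) in border macrophages, 59.1 ± 29.4 in fibroblasts, 38.4 ± 13.3 in microglia and 19.3 ± 13.0 in endothelial cells, with 1.92 ± 1.79 in astrocytes and 0.198 ± 0.198 in oligodendrocytes. In mutants the values were 122 ± 39.6 in microglia, 108 ± 52.0 in endothelial cells, 11.4 ± 4.29 in astrocytes and 0.988 ± 0.774 in oligodendrocytes. Gm4951 overlaps Gm5970 on the same strand and has near-identical copies, so its reads are uncertain by source.

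Herc6, a ligase that attaches ISG15 in the mouse, and Rnf213, a giant ubiquitin ligase, were both highest in endothelial cells (146 ± 40.9 and 173 ± 59 CPM) and next in microglia (124 ± 19.3 and 103 ± 26). Herc6 also separated the neurons, at 28.9 ± 7.8 CPM in Slc17a neurons and 5.30 ± 0.90 in neurons with Gad genes, which mark GABAergic cells. Rnf213 was at 2.89 and 5.63 CPM in the same neuron classes.

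Ccl12, a monocyte-attracting chemokine, was at 165 ± 146 CPM (n = 3) in control border macrophages and 29.0 ± 27.3 in microglia, and had 0 UMIs in control endothelial cells. Cxcl10, which attracts T cells, had 0 UMIs in control deep brain microglia and 13 in mutant ones. The immunoproteasome subunit Psmb8 was at 51.0 ± 20.6 CPM in endothelial cells, 17.9 ± 6.9 in microglia and 0.970 in astrocytes, and Psmb9 at 44.4 ± 14.4, 28.1 ± 9.0 and 0.475 in the same classes.

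Xaf1, a factor linked to apoptosis, and Ifi27 departed from the vascular and immune order. Xaf1 was at 126 ± 16.8 CPM in endothelial cells and next in oligodendrocytes (77.9 ± 9.4), above microglia (36.9 ± 9.1), astrocytes (3.56 ± 1.95) and oligodendrocyte precursors (3.76). Ifi27 was at 214 ± 106 CPM (n = 4) in choroid plexus epithelium, 117 ± 35.3 in newly forming oligodendrocytes and 67.3 ± 9.4 in oligodendrocyte precursors, above microglia (36.2 ± 8.6).

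Because classes differ in size, most UMIs of the 37 genes did not come from the classes with the highest levels. In control deep brain, neurons held 44.8% ± 3.4 of them and 77.1% of all UMIs, oligodendrocytes 13.1%, unnamed or mixed clusters 10.8% ± 2.22, astrocytes 8.87% and microglia 7.22% ± 1.13 (0.749% of all UMIs). In mutants the neuronal share was 32.2% ± 4.1, that of unnamed or mixed clusters 16.0% ± 1.36 and the microglial share 11.1% ± 1.4. Immune classes also took more of all UMIs in mutants. Microglia held 0.680% to 0.798% of all deep brain UMIs in controls and 0.831% to 1.058% in mutants, without overlap. By share of nuclei they overlapped, at 2.151% to 2.927% in controls and 2.664% to 3.489% in mutants. These microglial shares count the whole microglial clusters, before nuclei with markers of other types were removed. Border macrophages went from a mean of 0.0304% to 0.0465% of all UMIs and T lymphocytes from 0.0114% to 0.0307%, both with overlap. In the cortex the microglial mean went from 0.734% to 1.083%, with overlap, and that of border macrophages from 0.0258% to 0.116%, without. By share of nuclei cortical border macrophages overlapped, at 0% to 0.1444% in controls and 0.05968% to 0.2453% in mutants. In mutant cortex this class held neuron markers at 6595 ± 4322 CPM and its own at 4322 ± 641.9 (n = 3 libraries with at least 10 nuclei). The count of members without these classes is given below. Neurons with Slc17a transporters went from 23.7% to 11.9% of the members' UMIs and from 34.4% to 22.7% of all UMIs, and neurons with Gad genes from 21.1% to 20.3% and from 42.7% to 51.7%. The makeup of the neurons thus moved with genotype in the sums over all nuclei, and its part in them was not tested.

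**Figure D2:**
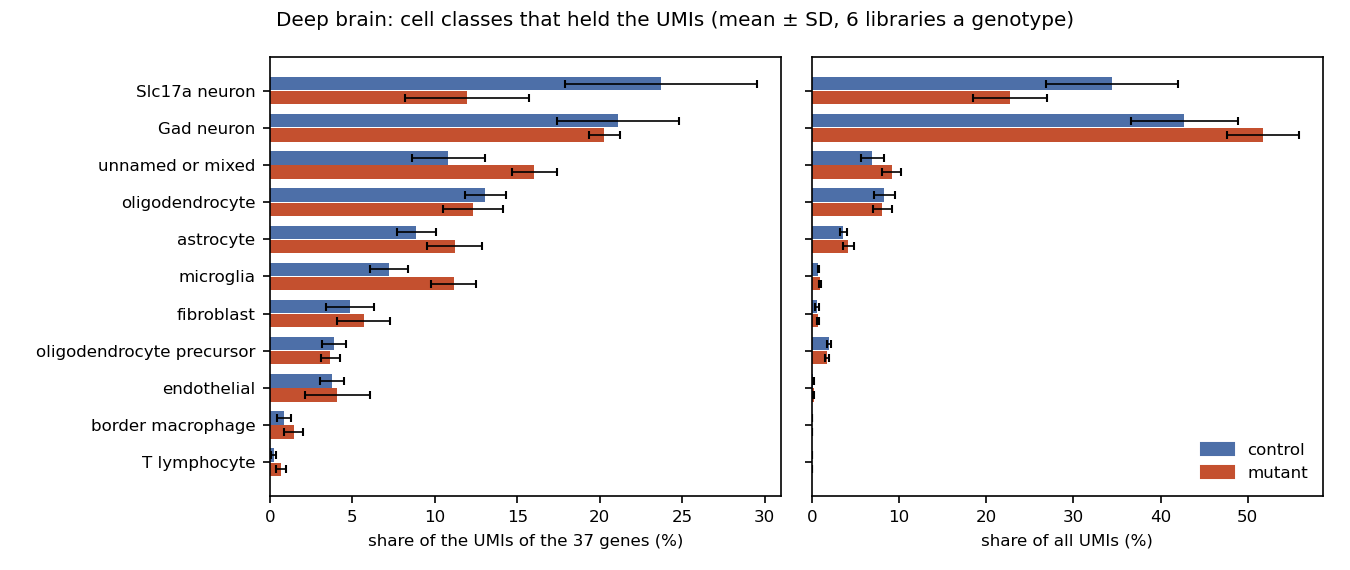
Share of the UMIs of the 37 genes (left) and of all UMIs (right) held by each class in the deep brain, in percent. Bars are means over 6 libraries, blue for control and red for mutant, and lines are SD. Microglia (whole clusters, before nuclei with markers of other types were removed) hold 7.22% and 11.1% of the members' UMIs but under 1% of all UMIs. Slc17a neurons hold less of both in mutants.

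The first comparison asked whether the 37 genes differed between genotypes in all nuclei of a region, before any class was set apart. In the deep brain, 15 of 37 members passed the test as higher in mutants and 0 as lower, against 0.908% of the 21038 genes tested (edgeR's quasi-likelihood test with Benjamini-Hochberg adjustment over all genes, adjusted p below 0.05). Of the 37, 36 had a positive fold change and 1 a negative one, and their median log2 fold change was 0.68, against -0.0033 over all genes. In 15 of 37 members every mutant lay above the highest control, against 1.02% of all genes. The members were chosen with earlier results of these data known. Here and in the comparisons below, shares, signs and medians set against all genes therefore describe this list and are no independent test of it. Of the 37, 33 had every library at the limit of the filter on low counts. In 3, all of them called, all mutants but not all controls reached it. In sums over all nuclei, fewer cells of a type and less RNA per cell cannot be told apart. DESeq2 called 24 of the 37, but its share over all genes is not given, so the higher count may not be particular to the members.

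Sensors made up 6 of the 15. Ifi204, a DNA-binding protein of the HIN-200 family, ranged from 0.152 to 0.399 CPM (median 0.224) in controls and from 0.540 to 0.873 (median 0.708) in mutants, without overlap (log2 fold change 1.52 ± 0.23 SE, adjusted p = 0.0090). Its neighbours in the same cluster on chromosome 1, Ifi209 (0.0870 to 0.230 against 0.365 to 0.929 CPM; 1.74 ± 0.30, adjusted p = 0.016) and Ifi207 (0.141 to 0.424 against 0.597 to 1.05 CPM, 1.34 ± 0.24, adjusted p = 0.019), did not overlap either. These genes are close copies of each other and reads may be divided between them. Ifi213 of the same cluster was at 0.115 to 0.324 CPM (median 0.19) in controls and 0.356 to 1.737 (median 0.614) in mutants (1.80, adjusted p = 0.047). Its highest mutant, mutant 2, stood far above the next (0.729 CPM). The call held in 3 of 12 fits without 1 library, and without mutant 2 the log2 fold change was 1.31, the lowest of the 12. The limit of the filter on low counts was reached by 4 of 6 controls for Ifi209 and 5 of 6 for Ifi213, and by all mutants for both.

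Zbp1, a sensor of left-handed nucleic acid that can start cell death, was at the edge of detection, at 0.0287 to 0.125 CPM (median 0.0748) in controls and 0.161 to 0.539 (median 0.22) in mutants. It had 36 UMIs in the controls and 135 in the mutants, and it passed the filter on low counts through the mutants alone (0 of 6 controls and 6 of 6 mutants at the limit), so its entry into the test favoured a difference (1.93 ± 0.42, adjusted p = 0.042). Ifih1, the RNA sensor MDA5, ran from 2.25 to 3.05 CPM (median 2.52) in controls and from 3.00 to 4.29 (median 3.55) in mutants, so that the groups overlapped slightly (0.51 ± 0.10, adjusted p = 0.031).

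Effectors among the 15 were Gm4951 and Oasl2. Gm4951 was at 0.798 to 2.25 CPM (median 1.39) in controls and at 3.18 to 5.79 (median 3.73) in mutants (1.5 ± 0.20, adjusted p = 0.0068). All mutants exceeded all controls. Oasl2, a relative of the oligoadenylate synthetases, lay at 0.617 to 1.35 CPM (median 1.30) against 1.63 to 3.91 (median 2.19), again apart (1.2 ± 0.27, adjusted p = 0.043).

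The ISG15, ubiquitin and ADP-ribose group gave 5 of the 15, and Trim30a, a ubiquitin ligase that restrains inflammatory signalling, had the smallest p of all members. It ranged from 2.40 to 3.42 CPM (median 2.68) in controls and from 4.02 to 5.85 (median 5.40) in mutants (0.89 ± 0.11, adjusted p = 0.0050). The Trim30 genes are also near copies, and reads may be divided between them. The ADP-ribosyltransferases Parp14 (1.27 to 2.30 against 2.87 to 3.96 CPM, 0.93 ± 0.15, adjusted p = 0.012) and Parp9 (2.70 to 3.28 against 3.66 to 5.13 CPM, 0.53 ± 0.087, adjusted p = 0.013) were likewise apart in every library. Parp9 overlaps Dtx3l on the other strand, and reads of the 2 genes may not be told apart. Usp18, which removes ISG15 and damps the type I receptor, overlapped, at 0.445 to 1.12 CPM in controls and 1.07 to 2.21 in mutants (1.33 ± 0.25, adjusted p = 0.025). Rnf213 was the remaining member of the group (0.44, adjusted p = 0.043).

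Psmb9, an immunoproteasome subunit whose gene overlaps Tap1 on the other strand, was at 0.431 to 0.574 CPM (median 0.514) in controls and 0.624 to 1.35 (median 0.822) in mutants (0.80 ± 0.17, adjusted p = 0.035). Sp100, a protein of nuclear bodies, was at 1.13 to 2.40 CPM (median 2.13) and 2.93 to 4.86 (median 3.76), with no overlap (0.92 ± 0.17, adjusted p = 0.024). Herc6 was the one member with a negative fold change (16.4 to 24.8 CPM in controls, 14.6 to 16.9 in mutants, -0.40, adjusted p = 0.060), and it did not pass.

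The count over all nuclei was lower without small immune classes and without some single libraries. With microglia, border macrophages and lymphocytes left out (an alternative added after the data were seen), 4 of 37 members passed in the deep brain (Usp18, Trim30a, Parp14 and Gm4951). Of the other 11, Ifi209, Ifi213 and Zbp1 were then too low for the test, and 8 kept a positive value without passing, such as Ifi204 (1.49 against 1.52 with all nuclei, adjusted p = 0.071), Psmb9 (0.80 against 0.80, adjusted p = 0.14) and Sp100 (0.66 against 0.92, adjusted p = 0.14). Without control 1, 4 or 5 or mutant 2 the count was 7, and without mutant 3 it was 8. The share of all genes that passed without the immune classes or without 1 library is not given. A lower count may therefore not be particular to the members. Gm4951, Ifi204, Ifi209, Parp14, Parp9 and Trim30a passed in each of the 12 fits that left out 1 library.

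**Figure D3:**
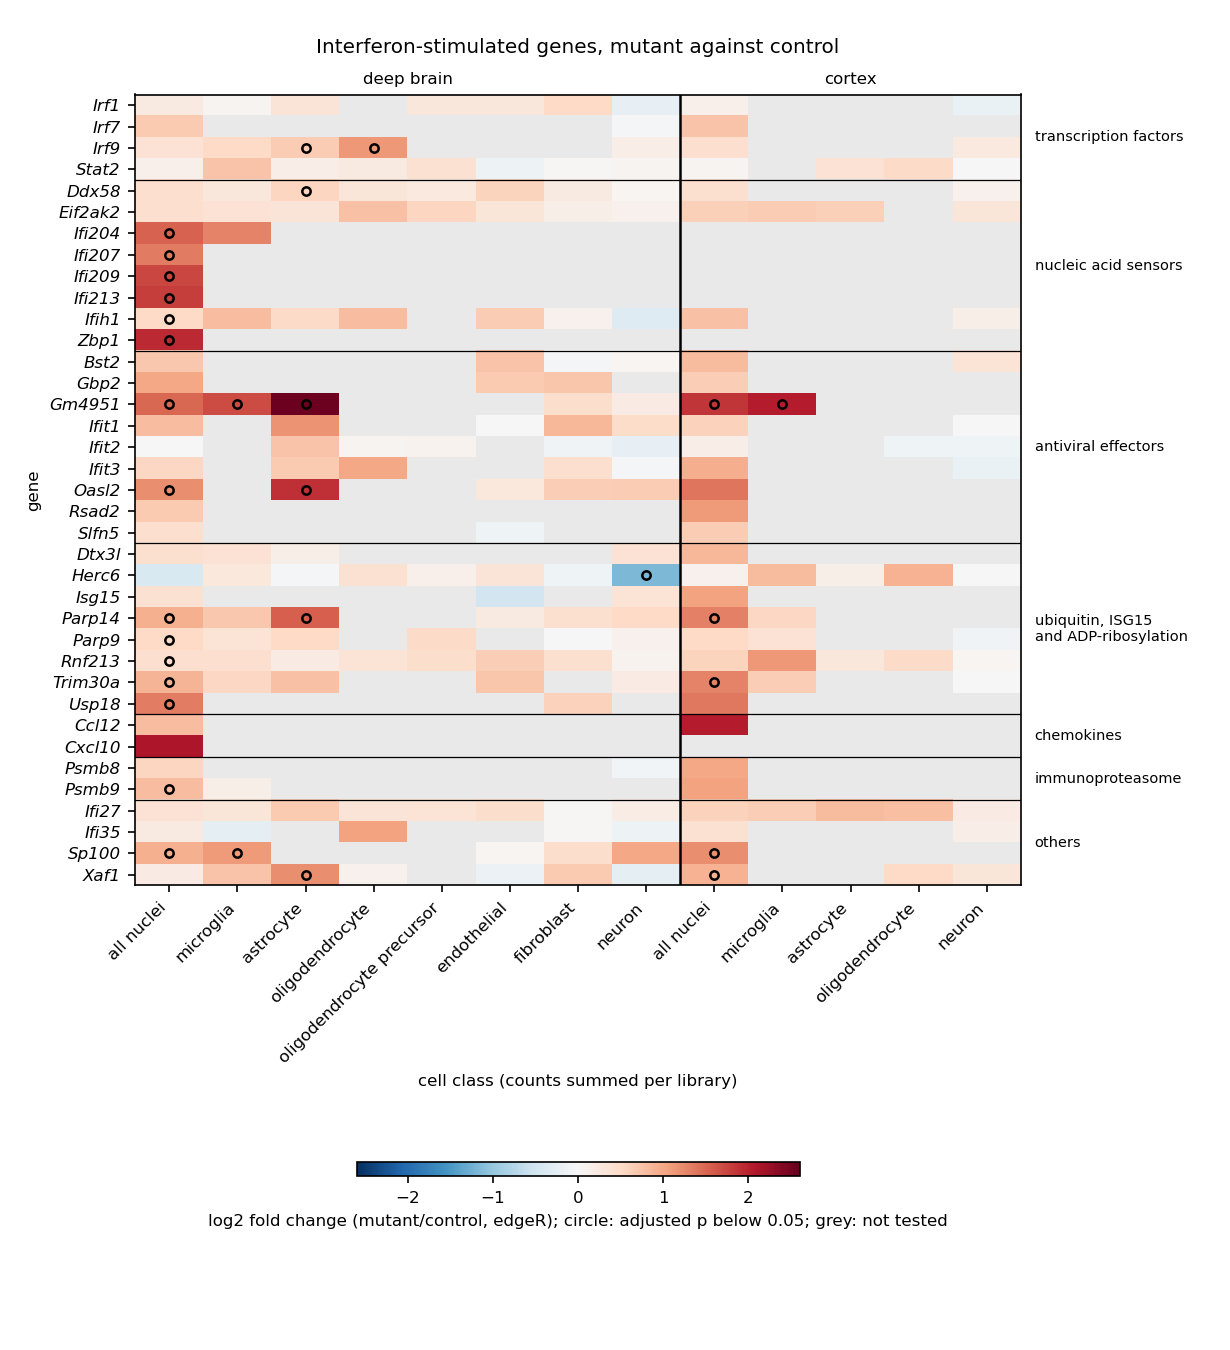
Log2 fold change between mutants and controls for each of the 37 genes (rows, grouped by role) in sums over all nuclei and over each cell class (columns), deep brain left and cortex right of the heavy line. Red is higher in mutants, blue lower and grey not tested for low counts, and circles mark adjusted p below 0.05. Circles are most numerous over all deep brain nuclei (15) and deep brain astrocytes (6), and the 1 circle on blue is Herc6 in deep brain neurons.

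Within deep brain microglia (986 control and 1282 mutant nuclei, 132 to 269 a library) the summed level of the 37 genes was 1087 to 1496 CPM in controls and 1480 to 2339 in mutants. The members with enough UMIs to test numbered 19, of which 2 were higher in mutants and 0 lower, against 0.11% of 7295 genes (edgeR). The count was 7 with no filter on low counts and 4 with the replicate block, for which the shares over all genes are not given. Of the 19, 18 had a positive fold change, 10 with an unadjusted p below 0.05 (5.8% of all genes in either direction), and the median log2 fold change was 0.43 against 0.0031 over all genes. In 7 of the 19, Gm4951 among them, all mutants but not all controls reached the limit of the filter on low counts (10 had every library at it), so these signs and this median describe the tested members and lean toward higher values in mutants. The same 2 were the members whose mutants all lay above the highest control, against 0.178% of all genes. Nuclei in this class with a UMI of Mrc1, Mbp, Aqp4 or Rbfox3, markers of other types, had been left out. Markers of border macrophages summed to 0.9 ± 1.40 CPM in controls and 1.10 ± 1.79 in mutants, with 6 and 5 of 7 at 0. Leaving out nuclei with Mrc1 lowers this sum by itself. Neuron markers still summed to 1148 ± 191.4 and 1145 ± 299.3 CPM, oligodendrocyte markers to 833.2 ± 86.63 and 812.4 ± 138.9, and astrocyte markers to 385.9 ± 56.24 and 455.2 ± 107.8. The mean mitochondrial share of UMIs was 0.148% in control and 0.206% in mutant microglia (0.149% and 0.2% in astrocytes), and its part in the differences was not tested.

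Gm4951 rose most plainly in these microglia. It ranged from 17.1 to 56.2 CPM (median 39.7) in controls and from 65.8 to 172 (median 113) in mutants (log2 fold change 1.70 ± 0.24, adjusted p = 3.9e-04). Sp100 went from 36.2 to 69.6 CPM (median 52.4) in controls to 88.4 to 137 (median 113) in mutants (1.11 ± 0.17, adjusted p = 8.0e-04). Neither gene's groups overlapped, and both passed in each of the 12 fits without 1 library.

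The other 17 tested members did not pass. Trim30a (0.55, adjusted p = 0.11), Parp14 (0.70, adjusted p = 0.15), Ifih1 (0.81, adjusted p = 0.23) and Ifi204 (1.29, adjusted p = 0.26) came nearest. Parp14 lay at 48.2 to 102 CPM (median 79.9) in controls and 101 to 162 (median 111) in mutants, with slight overlap. Stat2 (0.73, adjusted p = 0.41), Xaf1 (0.75, adjusted p = 0.46), Rnf213 (0.43, adjusted p = 0.73), Irf9 (0.51, adjusted p = 0.73) and Herc6 (0.27, adjusted p = 0.84) had positive values, as had Eif2ak2 (0.37), Dtx3l (0.37), Parp9 (0.36), Ifi27 (0.31), Ddx58 (0.29), Psmb9 (0.16) and Irf1 (0.06). Ifi35 alone was negative (-0.24).

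The remaining 18 members had too few UMIs for the test and are given as UMIs summed over the 6 libraries. Among effectors, Oasl2 had 19 UMIs in controls and 61 in mutants, Slfn5 11 and 47, Bst2 34 and 73, Ifit2 18 and 41, Ifit3 9 and 22, Ifit1 2 and 10, Gbp2 11 and 15, and Rsad2 0 and 6. Among sensors, Ifi209 had 24 and 74, Ifi207 9 and 60, Ifi213 11 and 39, and Zbp1 4 and 19. Usp18 had 25 and 65, Irf7 11 and 33, Isg15 3 and 10, Ccl12 68 and 104, Psmb8 42 and 55, and Cxcl10 0 and 13. Mutants contributed more microglial nuclei and UMIs, so these sums are not levels, and each gene's CPM overlapped between the genotypes.

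**Figure D4:**
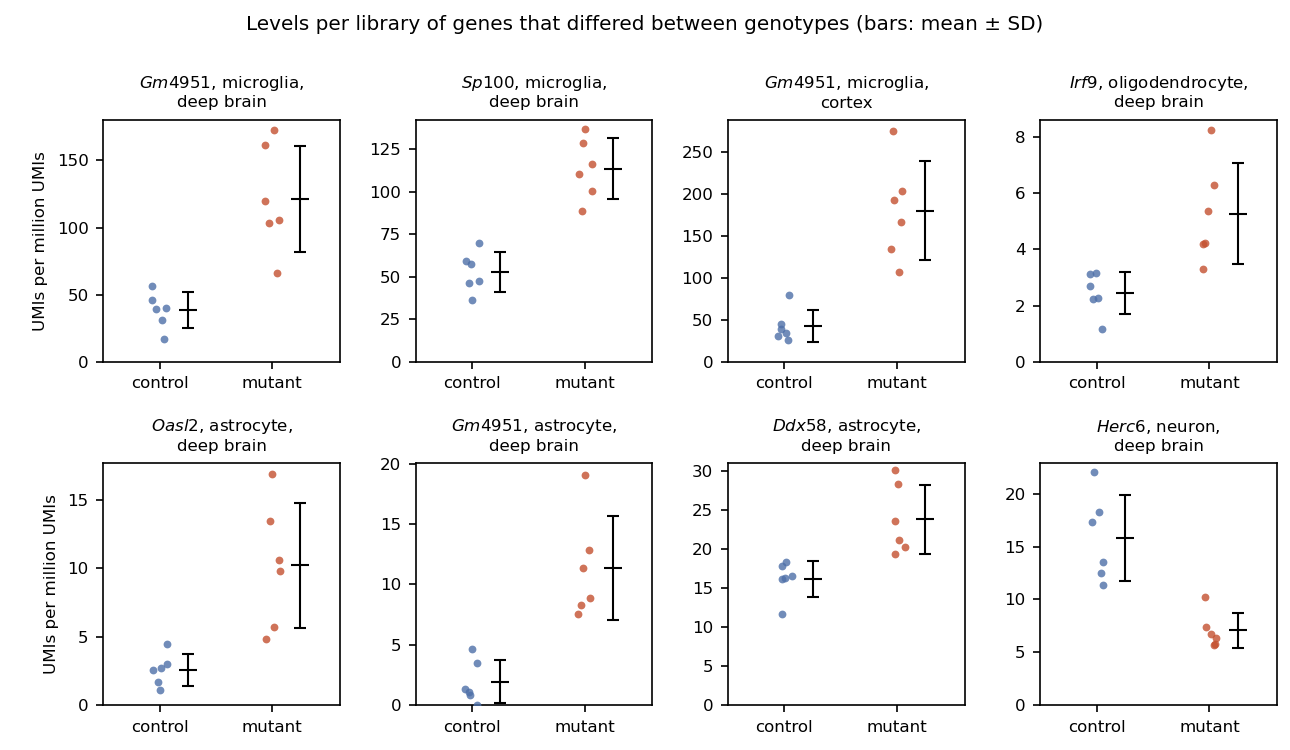
Level in each library (CPM of the class, linear axes from 0) of members that differed between genotypes within a class. Points are libraries, blue for control and red for mutant, with mean ± SD (n = 6) beside them. The 8 panels are the called members whose groups do not overlap (Parp14, Irf9 and Xaf1 in astrocytes, which overlap, are not shown), with Herc6 in deep brain neurons the one in which controls lie above mutants.

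Single microglial nuclei showed the members unevenly. In control deep brain 34 of 986 microglia (3.448%) held at least 10 UMIs of the 37 genes and 21.06% of the class's member UMIs, and in mutants 85 of 1282 (6.63%) held 30.09%. These pool nuclei over mice. Such nuclei numbered 3 to 11 in a control library and 8 to 23 in a mutant one, with overlap. The most in 1 nucleus was 40 UMIs in controls and 103 in mutants. To compare nuclei of unlike depth, each was thinned to 1000 UMIs, which left out 12 shallower control and 27 mutant nuclei. The share with at least 3 member UMIs was then 10.1% to 16.5% (median 11.4%) in control and 17.9% to 26.8% (median 25.4%) in mutant libraries, without overlap. Unthinned, the medians were 40.84% and 51.37%.

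The same thinned share was 9.75% ± 3.44 and 25.8% ± 7.02 in cortical microglia, 40.0% ± 5.08 and 51.2% ± 5.72 in deep brain endothelial cells, and 9.81% ± 3.89 and 14.5% ± 3.51 in fibroblasts. In astrocytes it was 0.948% ± 0.28 in controls and 2.14% ± 0.818 in mutants (11.13% and 15.75%, unthinned medians). Neurons, the class with least of these transcripts, gave 0.0398% and 0.0359%, at a median of 10300 and 9412 UMIs per nucleus before thinning, against 2366 and 2174 in microglia. These shares were not tested.

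**Figure D5:**
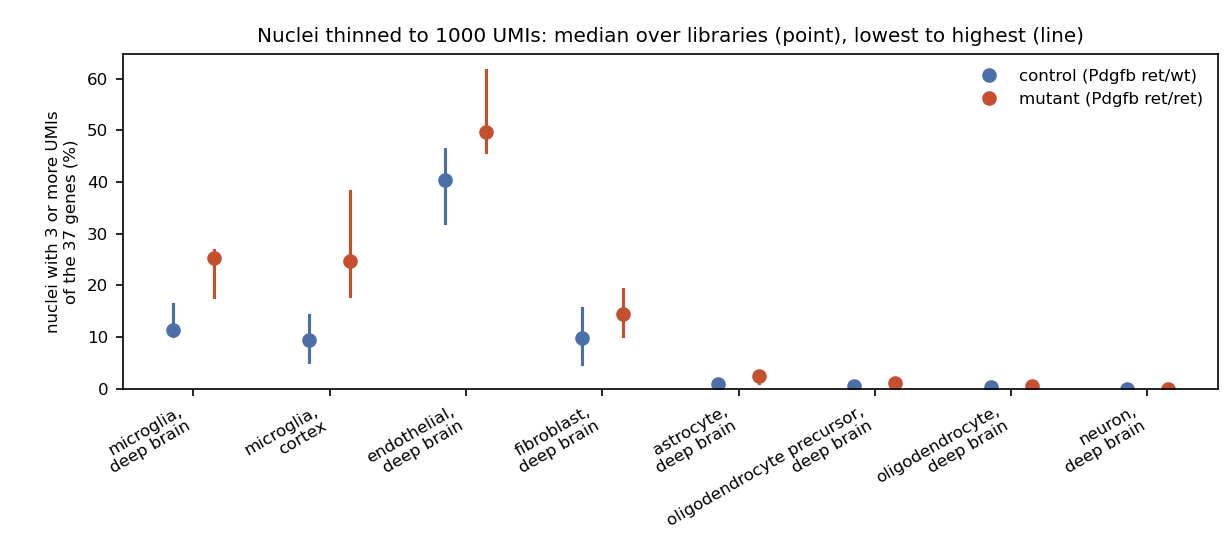
Share of nuclei with 3 or more UMIs of the 37 genes (%, linear axis) after thinning each nucleus to 1000 UMIs, by class and region. Points are medians over libraries, lines run from the lowest to the highest library, blue for control and red for mutant. The lines of control and mutant microglia are apart in both regions, and those of neurons lie near 0.

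Deep brain astrocytes, which support synapses and vessels, held the most members that passed within a class in the main edgeR fits. Of 19 members tested, 6 were higher in mutants and 0 lower, against 3.14% of 12816 genes, and 18 of 19 had a positive value with a median log2 fold change of 0.66, against -0.0042 over all genes. Of the 19, 11 had every library at the limit of the filter on low counts. In 5, all mutants but not all controls reached it. These signs and this median thus describe the tested members and lean toward higher values in mutants. In 3 members every mutant exceeded the highest control, against 1.65% of genes. The summed level was 288 to 336 CPM in controls and 341 to 493 in mutants. Microglial markers summed to 97.0 ± 11.0 CPM in control and 98.6 ± 13.5 in mutant astrocytes with 0 of 9 at 0, about the same in both genotypes. So did oligodendrocyte markers (755.8 ± 113.5 and 754.2 ± 88.94 CPM). Oligodendrocyte precursor markers were higher in mutants (213.6 ± 47.82 and 344.1 ± 71.03 CPM), as were T lymphocyte markers (8.516 ± 3.844 and 13.44 ± 4.292), both with overlap. Border macrophage markers were lower in mutants (5.151 ± 1.985 and 3.918 ± 0.8917), with overlap. The part of such RNA in the astrocyte differences was not tested.

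Gm4951 was again first, at 0 to 4.68 CPM (median 1.23) in control and 7.56 to 19.1 (median 10.1) in mutant astrocytes, from 32 and 220 UMIs in all (2.55 ± 0.43, adjusted p = 0.0024). The limit of the filter on low counts was reached by 2 of 6 controls and 6 of 6 mutants for Gm4951, 1 and 6 for Oasl2, 1 and 5 for Parp14 and 3 and 6 for Xaf1, so these genes entered the test mainly through the mutants. Oasl2 ran from 1.08 to 4.48 CPM (median 2.64) in controls and from 4.79 to 16.9 (median 10.2) in mutants (1.90 ± 0.36, adjusted p = 0.0054). Ddx58 lay at 11.7 to 18.3 CPM (median 16.4) against 19.4 to 30.1 (median 22.4), with a smaller change (0.55 ± 0.14, adjusted p = 0.032). These 3 did not overlap between genotypes, and they were the 3 members that passed when nuclei with a UMI of a microglial or macrophage marker were left out.

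Parp14 was at 0.731 to 4.25 CPM (median 1.39) in control and 2.97 to 7.98 (median 4.98) in mutant astrocytes (1.55 ± 0.37, adjusted p = 0.022). Irf9 lay at 5.10 to 10.4 CPM (median 7.72) and 9.71 to 14.7 (median 12.6; 0.66 ± 0.17, adjusted p = 0.035), and Xaf1 at 0.720 to 6.40 (median 3.50) and 5.40 to 11.4 (median 8.36; 1.2 ± 0.32, adjusted p = 0.038). In all of these the groups overlapped. Eif2ak2 missed the threshold narrowly (0.33, adjusted p = 0.050007). The count was 3 without control 5 or mutant 1 and 2 without mutant 2 or mutant 3, and Gm4951 and Oasl2 were the members that passed in each of the 12 fits.

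In deep brain oligodendrocytes, the myelinating cells, 1 of 12 tested members was higher in mutants and 0 lower, against 1.14% of 13277 genes, and all 12 had positive values (median log2 fold change 0.37 against 0.0033). The member was Irf9, at 1.16 to 3.15 CPM (median 2.48) in controls and 3.29 to 8.25 (median 4.80) in mutants (1.12 ± 0.25, adjusted p = 0.033). At the limit of the filter on low counts were 5 of 6 controls and 6 of 6 mutants, and 7 of the 12 tested members had every library there. In 2 of the 12, all mutants but not all controls reached it, so the signs and the median lean toward higher values in mutants. The groups of Irf9 were apart, as were those of Ifi35 (0.429 to 1.6 against 1.61 to 2.64 CPM, 1.05 ± 0.30, adjusted p = 0.098), 2 of 12 against 0.949% of genes. Irf9 overlaps Rnf31 on the same strand, so some of its reads may belong to that gene. Its call was lost in 6 of 12 fits without 1 library (each of controls 2 to 5 and mutants 2 and 3), and it was also lost with clusters at resolution 2, with the replicate block (adjusted p = 0.062) and with the block by age (adjusted p = 0.076), while DESeq2 called 1 member.

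Oligodendrocyte precursors gave 0 of 9 members in the deep brain by edgeR, against 0.0547% of 10977 genes in either direction, with 4 of 9 at an unadjusted p below 0.05 (5.5% of all genes) and 0 by DESeq2. All 9 were positive, with a median of 0.35, where 49.9% of all genes were positive. How many libraries reached the limit of the filter on low counts is not given for these 9, so their signs may lean. Rnf213 was nearest (17.6 to 26.8 CPM in controls, 25.9 to 44.8 in mutants, 0.45 ± 0.15, adjusted p = 0.62), and its groups overlapped. In newly forming oligodendrocytes 1 member could be tested, 0 passed by edgeR or DESeq2 (0 at an unadjusted p below 0.05), and 0% of 2609 genes did.

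Deep brain endothelial cells (326 control and 308 mutant nuclei, 21 to 78 a library) had the high levels given above but 0 of 18 tested members passed by edgeR and 0 by DESeq2, against 1.7% of 3354 genes in either direction. At an unadjusted p below 0.05, which 10.9% of all genes reached, there were 6, all positive: Ifih1, Gbp2 (an interferon-inducible GTPase), Bst2 (which tethers budding virus to the cell), Trim30a, Rnf213 and Ddx58. Ifih1 ran from 80.5 to 113 CPM (median 98.8) in controls and from 111 to 208 (median 141) in mutants (0.66 ± 0.22, adjusted p = 0.17), and Bst2 from 46.0 to 111 (median 82.1) and 67.4 to 172 (median 145; 0.75 ± 0.26, adjusted p = 0.19). Both overlapped. Gm4951 was too low for the test, with 17 UMIs in controls (0 to 37.8 CPM) and 114 in mutants (36.98 to 190.2 CPM). The endothelial class also held mural RNA, which differed with genotype. Mural markers summed to 2678 ± 1010 CPM in control and 792.9 ± 633.9 in mutant endothelial cells, with overlap. In control mural cells they summed to 13560 ± 2084 CPM. The summed level of the 37 genes was lower in mural than in endothelial cells (above). The part of this mural RNA in the endothelial differences was not tested.

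Other effectors of endothelial cells varied within a genotype. Rsad2 (viperin), with 82 UMIs in controls and 36 in mutants, ran from 0 to 390 CPM in controls with a median of 30.8, and Isg15 was at 46.0 to 128 CPM in controls and 40.3 to 107 in mutants. Over the 18 tested, 13 values were positive and 5 negative, with a median of 0.31 against -0.014. The libraries at the limit of the filter on low counts are not given for these 18, so their signs may lean. Leaving out any control, or mutant 6, gave 1 member, as did the replicate block and the block by age. The fit with no filter on low counts gave more.

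In deep brain fibroblasts 0 of 21 members passed by edgeR or DESeq2, as did 0% of 8606 genes, with 3 of 21 at an unadjusted p below 0.05 (Ifit1, Sp100 and Gbp2, all positive; 5.22% of all genes) and a median of 0.41. Of all genes 50.4% were positive. The libraries at the limit of the filter on low counts are not given for these 21, so the median may lean. Ifit1 was at 8.03 to 50.9 CPM in controls and 18.1 to 70.4 in mutants (0.86 ± 0.35, adjusted p = 0.93). The fibroblast sums also held neuron and astrocyte markers (values above), so these results are not of fibroblast RNA alone. In ependymal cells the 1 member tested did not pass (0 by edgeR and DESeq2, 0 at an unadjusted p below 0.05, 0% of 2309 genes). Mural cells could not be compared, with 13 to 25 nuclei in control and 1 to 8 in mutant deep brain libraries, nor could T lymphocytes, with 0 to 9 in control and 11 to 21 in mutant libraries.

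Deep brain neurons went the other way for 1 gene. Of 25 members tested, 0 were higher and 1 was lower in mutants, against 0.266% of 19899 genes lower, and 16 values were positive and 9 negative, with a median of 0.088. Of the 25, 21 had every library at the limit of the filter on low counts. Herc6 ranged from 11.4 to 22.1 CPM (median 15.4) in controls and from 5.69 to 10.3 (median 6.58) in mutants (-1.17 ± 0.19, adjusted p = 0.033). It was the 1 member of 25 whose mutants all lay below the lowest control, against 0.618% of genes.

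The makeup of the neurons moved with the Herc6 difference. Its level in controls was higher in Slc17a than in Gad neurons, and Slc17a neurons held a smaller share of UMIs in mutants (both above). The cortical glutamatergic marker Slc17a7 was at 101 ± 31.2 CPM in control and 53.1 ± 29.6 in mutant deep brain neurons. Within Slc17a neurons alone the Herc6 change was -1.08 (adjusted p = 0.081), from 28.9 ± 7.75 to 13.2 ± 5.17 CPM, and within Gad neurons -0.28 (adjusted p = 0.87). The part of dissection and neuron makeup in it was not tested. Its call was lost in 8 of 12 fits without 1 library (controls 1, 4 and 5 and mutants 1, 2, 3, 5 and 6).

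The cortex posed the same question in tissue less prone to calcification. Over all cortical nuclei 5 of 31 tested members were higher in mutants and 0 lower, against 0.237% of 18171 genes, and all 31 values were positive (median log2 fold change 0.77 against -0.0075). Of the 31, 23 had every library at the limit of the filter on low counts. In 6, of which 0 were called, all mutants but not all controls reached it. These signs and this median thus describe the tested members and lean toward higher values in mutants. In 5 of 31 every mutant lay above the highest control, against 0.512% of genes. Gm4951 was at 0.750 to 1.87 CPM (median 1.07) in controls and 2.26 to 5.36 (median 4.63) in mutants (1.87 ± 0.24, adjusted p = 0.010). Parp14 lay at 1.00 to 1.40 CPM and 1.67 to 3.67 (1.31 ± 0.20, adjusted p = 0.018), and Trim30a at 1.98 to 2.70 and 2.76 to 7.74 (1.29 ± 0.20, adjusted p = 0.020). Neither overlapped.

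Xaf1 ran from 4.36 to 5.97 CPM in control and from 6.25 to 14.4 in mutant cortex (0.90 ± 0.16, adjusted p = 0.036), also apart, and Sp100 from 1.21 to 2.04 and 1.85 to 4.08 (1.22 ± 0.20, adjusted p = 0.027), with overlap. DESeq2 called 12. Same-numbered cortical libraries deviated together, and with the replicate block 15 of 31 passed. The share of all genes that passed by DESeq2, with the block or under the alternatives below is not given. A higher count may therefore not be particular to the members. The count was 9 without the 3 deep libraries (an alternative added after the data were seen) and 0 without microglia, macrophages and lymphocytes. All 5 then kept a positive value, with Xaf1 at 0.86 (adjusted p = 0.085), Parp14 at 1.04 (adjusted p = 0.29), Gm4951 at 1.06 (adjusted p = 0.22), Trim30a at 0.82 (adjusted p = 0.24) and Sp100 at 0.61 (adjusted p = 0.68). The count was 1 without control 5, mutant 2 or mutant 3, 2 without control 4, 3 without mutant 1 or 4, and 12 without mutant 5.

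In cortical microglia (18 to 307 nuclei a library) the test reached 8 members, of which 1 was higher in mutants and 0 lower, against 0.144% of 2769 genes. All 8 values were positive, 6 with an unadjusted p below 0.05 (6.1% of all genes), with a median of 0.64 against -0.012. Only 1 of the 8 had every library at the limit of the filter on low counts, and in 4 all mutants but not all controls reached it, so the signs and the median lean toward higher values in mutants and describe the tested members alone. Gm4951 was the one, at 25.7 to 79.1 CPM (median 36.9) in controls and 107 to 275 (median 179) in mutants (2.04 ± 0.29, adjusted p = 3.6e-04), and it passed without any 1 library. For Gm4951 this was 0 of 6 controls and 6 of 6 mutants, so it entered the test through the mutants. Herc6 was also apart, at 52.7 to 117 CPM against 134 to 227 (0.83, adjusted p = 0.21), which makes 2 of 8 against 0.361% of genes. Rnf213 (1.12, adjusted p = 0.16), Trim30a (0.63, adjusted p = 0.40), Eif2ak2 (0.66), Ifi27 (0.63), Parp14 (0.54) and Parp9 (0.37) did not pass. The count was 2 without mutant 6, 3 with the replicate block and 3 with a block by age, and 4 of 6 same-numbered pairs correlated above 0.1.

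By edgeR without a block, oligodendrocytes of the cortex had 0 of 6 members, against 0.597% of 10384 genes, astrocytes 0 of 5 (0.35% of 9146), oligodendrocyte precursors 0 of 1 (0% of 5481) and neurons 0 of 17 (0.006% of 16664). At an unadjusted p below 0.05 the members were 4 (12.0% of genes), 1 (11.7%), 1 (6.44%) and 0 (6.81%) in the same order. In oligodendrocytes 3 members passed with the replicate block, 3 with a block by age and 2 without the 3 deep libraries, while 4 of 6 same-numbered pairs there correlated above 0.1. DESeq2 called 1 member in oligodendrocytes and 0 in the other 3 classes. In oligodendrocytes Xaf1 was nearest, at 53.7 to 73.1 CPM in controls and 70.0 to 113 in mutants (0.52 ± 0.13, adjusted p = 0.082), and 1 member passed without mutant 4 or 5. In astrocytes it was Eif2ak2, at 20.2 to 44.1 and 33.9 to 56.1 CPM (0.61 ± 0.19, adjusted p = 0.20). Herc6 in cortical neurons was at 29.4 ± 6.8 CPM in controls and 28.3 ± 4.0 in mutants. All 12 cortical libraries, the 3 deep ones among them, entered these fits.

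A comparison of regions within control mice asked whether the members differ between calcification-prone tissue and cortex in animals with 1 ret allele. The main fits treated the libraries of a mouse as independent, and a block by mouse was an alternative. Astrocytes did so for 4 of 14 members, all higher in the deep brain. Of 12462 genes, 1726 (13.9%) were higher there and 2060 lower, so differences between regions were common among all genes. Neuron markers summed to 6832 ± 1828 CPM in cortical and 813.7 ± 180.2 in deep brain control astrocytes. The part of this neuronal RNA in the 4 differences was not tested. Ifih1 was at 8.64 to 18.7 CPM (median 13.1) in deep brain and 4.42 to 8.90 (median 6.53) in cortical control astrocytes (0.88 ± 0.26, adjusted p = 0.013), and Eif2ak2 at 33.6 to 42.4 and 20.2 to 44.1 (0.53 ± 0.16, adjusted p = 0.014). Herc6 lay at 56.5 to 79.3 and 25.2 to 66.4 CPM (0.43 ± 0.15, adjusted p = 0.033) and Parp9 at 9.60 to 12.8 and 3.25 to 13.0 (0.74 ± 0.26, adjusted p = 0.040). The regions overlapped for each of the 4, and the count was 2 without control 1, 3 or 5 and 1 without control 4.

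In control oligodendrocytes 0 of 8 members were higher and 1 was lower in the deep brain, against 7.62% of 12685 genes lower. It was Ifi27, at 34.7 to 51.8 CPM in deep brain and 33.8 to 110 in cortex (-0.76 ± 0.22, adjusted p = 0.032), with overlap, and the call was lost without any 1 of controls 1 to 4. With the mouse as a block the count was 3 (Usp18, Xaf1 and Ifi27). By edgeR 0 of 15 members passed in microglia, against 2.22% of 6265 genes, and 0 of 8 in oligodendrocyte precursors, against 3.4% of 10502 genes (0 in both by DESeq2). At an unadjusted p below 0.05 there were 2 members in microglia (10.3% of genes) and 2 in precursors (13.9% of genes). In precursors the block by mouse gave 1, Ifi27, and so did the fit without control 5.

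Whether the genotype difference itself depended on region was tested as an interaction, with the libraries of a mouse treated as independent. By edgeR and by DESeq2 0 members passed in any of 4 classes: 0 of 22 in microglia (0% of 8388 genes), 0 of 22 in astrocytes (0.0451% of 13297 genes), 0 of 18 in oligodendrocytes (0% of 13632 genes) and 0 of 10 in precursors (0% of 11131 genes). At an unadjusted p below 0.05 the members were 3 (3.47% of genes), 0 (7.89%), 1 (3.51%) and 0 (4.58%) in the same order. In microglia the 3 were Psmb9 (-1.06 ± 0.49), Herc6 (-0.54 ± 0.25) and Rnf213 (-0.69 ± 0.33), each with a smaller difference in the deep brain. A miss of the threshold does not show that the regions respond alike.

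Likewise, the genotype difference in deep brain microglia was set against that in another class, with the classes of a mouse treated as independent. By edgeR 0 members passed against astrocytes (0 of 28, with 0.0645% of 12405 genes), oligodendrocytes (0 of 32, with 0.022% of 13648), neurons (0 of 35, with 0% of 18601) and endothelial cells (0 of 28, with 0.158% of 7597). At an unadjusted p below 0.05 the members were 3 (7.41% of genes), 6 (5.74%), 7 (5.74%) and 5 (6.78%) in the same order. DESeq2 called 0, 0, 2 and 1. Herc6 against neurons was nearest, with a difference of 1.45 ± 0.26 (adjusted p = 0.055), and Sp100 against endothelial cells differed by 1.00 ± 0.25 (adjusted p = 0.095). For Gm4951 the difference was -0.81 ± 0.50 against astrocytes (adjusted p = 0.79), -0.83 ± 0.53 against endothelial cells (adjusted p = 0.88) and 1.49 ± 0.35 against neurons (adjusted p = 0.21). With the mouse as a block 2 members passed against neurons (Herc6 and Gm4951), and 1 passed without control 2 or mutant 4.

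The members were set beside 120 further genes of the pathway, from ligands to targets. None of the 21 interferon genes had enough UMIs to be tested in any comparison, and over all kept nuclei Ifne had 26 UMIs, Ifnk 19, Ifna16 17, Ifna2 14, Ifnb1 9 and Ifng 6, and 9 had 0. Receptor chains were plentiful, with 51750 UMIs of Ifnar1, 35988 of Ifnar2, 29205 of Ifngr1 and 32866 of Ifngr2. By edgeR 0 receptor genes passed in any genotype comparison, and those at an unadjusted p below 0.05 were Ifngr1 over all nuclei, in astrocytes (0.25, adjusted p = 0.16) and in neurons (0.18, adjusted p = 0.33) of the deep brain and Il10rb in deep brain astrocytes (-0.46, adjusted p = 0.18). Over all deep brain nuclei Ifnar1 was at 34.6 to 37.6 CPM in controls and 34.0 to 37.8 in mutants, and Ifngr1 at 18.1 to 23.2 and 20.6 to 27.4 (0.24 ± 0.062, adjusted p = 0.076).

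Over all deep brain nuclei 17 of 88 tested pathway genes were higher in mutants and 0 lower, against 0.908% of all genes higher. The pathway list was also chosen with earlier results of these data known, so its shares are no independent test either. Among them were Slfn8 of the Schlafen family (0.87 ± 0.13, adjusted p = 0.0087), the ubiquitin ligase gene Trim34a (0.87 ± 0.13, adjusted p = 0.0087), Phf11d (1.28 ± 0.19, adjusted p = 0.0087), the helicase Ddx60 (1.23 ± 0.18, adjusted p = 0.0087) and Ifi211 of the HIN-200 cluster (1.74 ± 0.29, adjusted p = 0.014). Ddx60 was at 1.77 to 2.20 CPM in controls and 3.09 to 6.43 in mutants.

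In astrocytes 7 of 45 were higher and 1 lower, in the class that also had the most calls over all genes (402 higher, 3.14%, and 227 lower of 12816). Ddx60 (1.75 ± 0.29, adjusted p = 0.0025), Trim34a (1.01, adjusted p = 0.0034), the secreted protein gene Lgals3bp (0.71, adjusted p = 0.0042) and the GTPases Gbp6 (1.56, adjusted p = 0.0047) and Gbp7 (0.73, adjusted p = 0.033) were among those higher, with Irgm1. Rtp4, a receptor transporter, was lower, at 14.1 to 26.4 CPM (median 22.5) in controls and 7.36 to 18.6 (median 10.7) in mutants (-0.92 ± 0.20, adjusted p = 0.014), with overlap. In precursors 1 of 32 passed (0.0547% of all genes), Ddx60, at 7.40 to 9.54 CPM in controls and 16.1 to 39.2 in mutants (1.6 ± 0.22, adjusted p = 5.9e-04), which did not overlap.

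Endothelial cells gave 1 of 30 (1.7% of all genes), Ifi203 of the HIN-200 family, at 18.9 to 67.8 CPM (median 37.3) in controls and 76.9 to 222 (median 116) in mutants (1.52 ± 0.33, adjusted p = 0.012), without overlap. Oligodendrocytes gave Parp12 (1.05, adjusted p = 0.017) and Irf2, a repressor of the pathway (0.28, adjusted p = 0.049), of 37 (1.14% of all genes higher). In microglia 0 of 51 passed by edgeR (13 positive and 1 negative at an unadjusted p below 0.05, which 5.8% of all genes reached), and in neurons 0 of 65 passed (6 positive and 4 negative at an unadjusted p below 0.05, which 12.3% of all genes reached). Over all cortical nuclei 8 of 75 were higher (0.237% of all genes), among them Epsti1 (1.11 ± 0.15, adjusted p = 0.012), Phf11d (1.71 ± 0.24, adjusted p = 0.012), Trim30d (1.05 ± 0.17, adjusted p = 0.026) and Sp110 (1.21 ± 0.22, adjusted p = 0.036), and in cortical oligodendrocytes Parp12 was 1 of 25 (1.37, adjusted p = 0.010), against 0.597% of all genes in either direction.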

How the data were processed

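Nuclei of 24 libraries were profiled by droplet sequencing from the 5′ end. According to the study's methods and the submitters' processing notes, the authors used bcl2fastq 2.20.0.422 and Cell Ranger 5.0.1 with introns included on mm10, and the deposited values are UMI counts per gene and nucleus, not normalized. The strand setting of the counting is not given in the sources used here. The files also list 3 construct features, left out (423 of 1410154298 UMIs in kept nuclei).

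The members and gene lists were chosen with earlier results of these data known. Nuclei with over 500 and under 7000 genes and under 20% mitochondrial UMIs were kept and scaled to 1000. The 2000 variable genes (without members, pathway, mitochondrial, Xist or Y-linked genes) gave 20 principal components, 20 neighbours and Leiden clusters at resolution 1 in each region (scanpy 1.11.5). A cluster was named where at least 3 markers, and at least 50% of a list, exceeded other clusters 2-fold, and clusters meeting no list or several stayed unnamed or mixed. These naming rules were set with the clusters already in view. No doublet caller was run. From the microglial clusters, nuclei with 1 or more UMIs of Rbfox3, Aqp4, Mbp or Mrc1 were removed.

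Counts were summed per library and class (at least 10 nuclei, 4 libraries a group) and tested over all genes by edgeR 4.0.16 (TMM, filterByExpr, quasi-likelihood) in R 4.3.3, with Benjamini-Hochberg adjustment, 0.05 as the threshold, in 28 comparisons. DESeq2 1.42.0 was an alternative. The SE printed with an edgeR log2 fold change is its size divided by the square root of the F statistic. It is thus worked back from the test and is approximate. The fits were tested on simulated counts. Every member that passed is named where at most 12 did, otherwise the 12 of smallest p (others named beside them were added after their values were seen); of the pathway list at most 5 a direction (Irgm1 and the receptors were added likewise, and 1 gene of the list is not reported here); across classes the 2 with most UMIs per role. Class totals limit precision. Replicate numbers pair libraries by mouse across regions and classes, while between genotypes all 6 same-numbered pairs correlated above 0.1 in sums over all cortical nuclei alone (0.212 to 0.762). Each library is 1 mouse.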

Additional observations from a re-analysis of the deposited data

Results flagged for a closer look

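Among 94 groups of 6 libraries examined for 1 value far from the others, 10 were found by Dixon's 95% limit, and chance gives about 1 in 20. Over all deep brain nuclei, Usp18 was at 1.123 CPM in control 6 (other controls 0.4448 to 0.6746). Mutant 2 stood apart for Ifi213 (1.737 CPM against 0.3559 to 0.7294 in other mutants) and Ifi207 (1.051 against 0.5971 to 0.7299), which are neighbouring copies. Mutant 3 stood apart for Psmb9 (1.349 CPM against 0.6238 to 0.8612) and Gm4951 (5.794 against 3.181 to 3.889). Ddx58 in deep brain astrocytes was at 11.69 CPM in control 4 (other controls 16.21 to 18.27), the one low value among the 10.

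In the cortex, control 3 was high for Sp100 over all nuclei (2.037 CPM against 1.209 to 1.399) and for Gm4951 in microglia (79.09 against 25.71 to 44.38, from 28 nuclei). The summed level of the 37 genes in cortical astrocytes was 398.5 CPM in control 2 (92 nuclei, other controls 198.1 to 262.4) and 1058 CPM in mutant 3 (30 nuclei, other mutants 267.5 to 430.3).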

How the results depend on the processing

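The numbers of members called kept to within 1.5 times under TMM against RLE scaling, under a limit of 5% mitochondrial UMIs and under most other alternatives: of the counts and levels recomputed, 182 moved less and 47 moved more, and no direction was reversed. With 1 mouse left out at a time, 261 moved less and 51 more. Of the values of single called members, 216 stayed past the threshold and 27 lost it under these alternatives, and 258 stayed and 144 lost it with 1 mouse left out. The cause of a change was not tested unless it is named. Counts of members under DESeq2 and the other alternatives are given without the share of all genes that passed in the same fit. A change in such a count may therefore not be particular to the members. DESeq2 called 24 members over all deep brain nuclei, 12 over all cortical nuclei, 1 in cortical oligodendrocytes, 2 for microglia against neurons and 1 for microglia against endothelial cells. With no filter on low counts, more genes were tested, and the counts were 7 in deep brain microglia, 4 in cortical microglia, 2 in endothelial cells, 8 over all cortical nuclei, 1 each in cortical oligodendrocytes, precursors and astrocytes, 2 between regions in oligodendrocytes, 1 for microglia against neurons and 2 against endothelial cells. Without microglia, macrophages and lymphocytes the sums over all nuclei gave 4 in the deep brain and 0 in the cortex (where the 5 members kept log2 fold changes of 0.61 to 1.06, with Xaf1 at 0.86 against 0.90 and Sp100 at 0.61 against 1.22), and without nuclei holding a microglial or macrophage marker UMI astrocytes gave 3. Slc17a or Gad neurons alone gave 0, and clusters at resolution 2 gave 0 in deep brain oligodendrocytes. All nuclei of the microglial clusters gave 4 in the cortex. Without the 3 deep cortical libraries the counts were 9 over all nuclei, 2 in microglia and 2 in oligodendrocytes.

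With the replicate block the counts were 15 over all cortical nuclei, 3 in cortical microglia, 3 in cortical oligodendrocytes, 4 in deep brain microglia, 0 in deep brain oligodendrocytes, 1 in endothelial cells, 3 and 1 between regions in oligodendrocytes and precursors, and 2 for microglia against neurons. Mutants and controls numbered 1 to 4 had the same age to the day. Between genotypes, same-numbered deep brain libraries correlated at -0.136 to 0.266 over all nuclei and -0.117 to 0.104 in microglia. The correlations were -0.0308 to 0.217 in astrocytes and -0.159 to 0.286 in oligodendrocytes. Pairs above 0.1 were 3 of 6 over all nuclei, in astrocytes and in oligodendrocytes, and 1 of 6 in microglia. The block by age gave 11 over all cortical nuclei, 3 in cortical microglia, 3 in cortical oligodendrocytes, 1 in endothelial cells and 0 in deep brain oligodendrocytes.

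Leaving out 1 library at a time, the counts ran from 7 to 15 over all deep brain nuclei, 1 to 12 over all cortical nuclei, 2 to 8 in deep brain astrocytes, 2 to 3 in deep brain and 1 to 2 in cortical microglia, and 1 to 3 between regions in astrocytes. They ran from 0 to 1 in endothelial cells, in neurons and oligodendrocytes of the deep brain, in cortical oligodendrocytes, between regions in oligodendrocytes and precursors, and for microglia against neurons, and stayed at 0 elsewhere. Thinned to 500 UMIs, the share of nuclei with 3 or more member UMIs was 3.884% in control and 8.384% in mutant microglia, 0.2732% and 0.816% in astrocytes, 0.09386% and 0.1575% in oligodendrocytes, and 13.99% and 20.27% in endothelial cells.

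Depth limits the small classes: 18 of 37 members could not be tested in deep brain microglia and more in the cortex, and the cortical fits mix libraries of unlike depth. Differences in dissection between mice were not tested.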
